A study of Drosophila melanogaster with 9 samples.

Results

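The Cpr genes of Drosophila melanogaster encode cuticle proteins that carry the Rebers-Riddiford consensus, a stretch that binds chitin. They were taken here as the probe sets whose single platform gene symbol was Cpr followed by a digit, with the brightest probe set standing for each gene. This gave 67 probe sets and 66 genes, out of 11981 genes that had a probe set of their own on the array. Cpr without a digit, the NADPH-cytochrome P450 reductase, is an unrelated gene and was not among them. The reference table of the fly genome lists 70 such genes, and the other 4 (Cpr57A, Cpr65Ax1, Cpr65Ax2 and Cpr65Ay) had no probe set naming them alone.

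Transcripts were measured on Affymetrix expression arrays in RNA of head and thorax from female Canton-S flies, a laboratory wild-type strain, aged 10 days. The flies had been kept on a restricted diet, on a normal diet to which resveratrol, a polyphenol of grapes and other plants, was added, or on a normal diet. There were 3 biological replicates per diet, each a pool of RNA from at least 75 females on 1 array. The make-up of the diets, the dose of resveratrol and how long it was fed were not given in the sources used here. Values are log2 probe set summaries made by the authors with GCRMA, and a change is a difference of log2 means. The values of different genes come from different probes and are not set against each other as amounts.

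Insect cuticle is built of chitin fibres embedded in proteins, which epidermal cells secrete at their outer face. Most of it is laid down around each moult, when ecdysone pulses switch sets of cuticle protein genes on and off in turn. An adult fly no longer moults, but its epidermis goes on adding inner layers of cuticle in the days after it emerges. The lens over each facet of the eye is cuticle too, and Cpr66D and Cpr72Ec are among the proteins found in it. The Cpr genes are named for the band of the giant chromosomes in which they lie, and several sit side by side in clusters. For most of them no role beyond a part in the cuticle is stated here.

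Most of the family was near the bottom of the scale in these adult heads and thoraces. Of the 66 genes, 17 reached log2 4 on at least 3 arrays, and the same 17 reached it on all 9. The other 49 lay under log2 4 on every array, and 37 of them were within 0.1 of 2.12, the lowest value in the table, on all 9 arrays. Between the sets lay an empty stretch, since no array of the 17 was under 4.73 and no array of the 49 was above 2.57. Just above the gap, Cpr47Ea averaged 4.94 over the 9 arrays, Cpr100A 5.76 and Cpr60D 6.07. Just below it, Cpr64Ab averaged 2.49, Cpr78E 2.48 and Cpr30F 2.38. In all, 25.8% of the Cpr genes reached log2 4, against 64.8% of the 11981 genes. No diet brought any of the 49 to log2 4, and their changes were not tested.

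**Figure D1:**
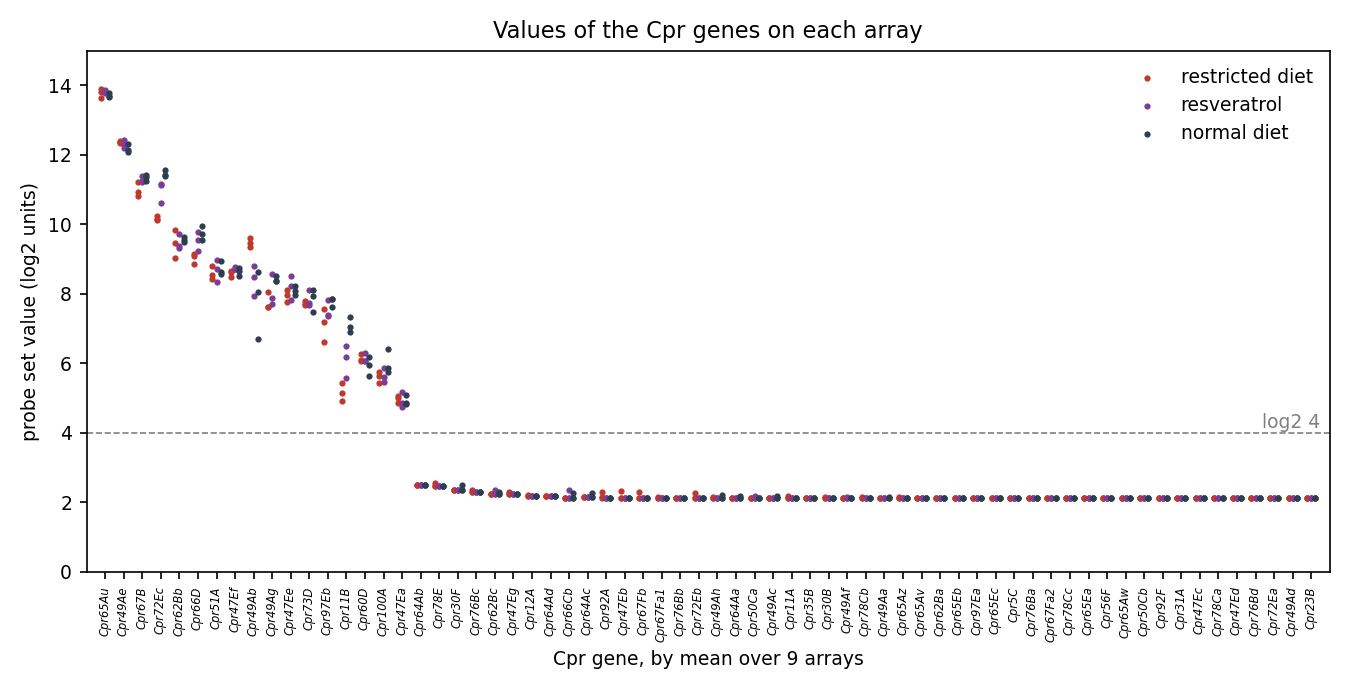
Probe set values (log2 units, vertical axis) of the 66 Cpr genes, ordered along the horizontal axis by their mean over 9 arrays. Each point is 1 array, coloured by diet, and the dashed line marks log2 4. The 17 genes on the left lie at 4.73 or above on every array, and the other 49 at 2.57 or below.

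Genes side by side in a cluster differed in whether they reached log2 4. Of the 8 genes named Cpr49A, 3 reached it (Cpr49Ab, Cpr49Ae and Cpr49Ag), and of the 7 named Cpr47E, 3 did (Cpr47Ea, Cpr47Ee and Cpr47Ef). Cpr49Ae and Cpr49Ag reached it on all arrays, while Cpr49Af, which lies between them in the RefSeq gene order with no other protein-coding gene in between, stayed under it. Cpr72Ec reached it next to Cpr72Eb and Cpr72Ea, which did not. Likewise Cpr62Bb was the member of a run of 3 adjacent genes that reached it, and Cpr97Eb reached it beside Cpr97Ea. None of the 4 genes named Cpr64A did, nor the 4 named Cpr76B, nor the 3 each named Cpr65E, Cpr67F and Cpr78C.

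The 17 genes above the gap were tested with the other features. A feature was a gene, or a probe set naming several genes or none, that reached log2 4 on at least 3 arrays, and there were 8822. A gene passed at a Benjamini-Hochberg adjusted p under 0.05 in limma, over all 8822 features. Since all 17 lay above log2 4 on every array, none entered through 1 diet alone.

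The first comparison set the restricted diet against the normal diet. Cpr11B, Cpr72Ec and Cpr66D were lower on the restricted diet and Cpr49Ab was higher, and the other 13 genes did not pass. The 3 lower genes were 17.6% of the 17, beside 12.9% of all features, and the 1 higher gene was 5.88%, beside 5.27%. Neither share stood far from that of all features. By size, 2 of the 17 were lower by at least 2-fold, where 0.363% of all features were, and 1 was higher by at least 2-fold, where 4.09% were. The change was below 0 in 12 of the 17, or 70.6%, beside 58.7% of all features. The changes of the 17 ran from -1.92 to 1.68, with a median of -0.13, and the median of all features was -0.05.

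Cpr11B had the largest change of the 17 in either direction. It stood at 4.93, 5.16 and 5.43 on the restricted diet, at 5.57, 6.17 and 6.49 with resveratrol, and at 6.92, 7.32 and 7.06 on the normal diet. The 3 diets did not overlap, and the resveratrol arrays filled the space between the other 2. Its mean was 5.17 ± 0.25 on the restricted diet and 7.10 ± 0.21 on the normal diet (SD, n = 3 each). That is 3.79-fold lower on the restricted diet, where its values were among the lowest of the 17 genes. The GCRMA background correction can widen changes low on the scale. The change was -1.92 with an SE of 0.24 (limma adjusted p = 0.00765). With 1 array left out or another setting it lay from -2.05 to -1.80, and the adjusted p stayed at 0.0287 or below.

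Cpr72Ec, a protein of the corneal lens, was the steadiest of the 4 genes on the restricted diet. Its values were 10.15, 10.13 and 10.26 on the restricted diet, 10.62, 11.13 and 11.17 with resveratrol, and 11.41, 11.58 and 11.39 on the normal diet. Again no diet overlapped another, and the restricted and normal arrays were 1.14 apart at their closest. The mean was 10.18 ± 0.07 on the restricted diet and 11.46 ± 0.10 on the normal diet (SD, n = 3 each). That is a change of -1.28, SE 0.14, or 2.43-fold lower (limma adjusted p = 0.00598), and over all other settings it ran from -1.32 to -1.22.

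Cpr66D, also found in the corneal lens, was lower by a smaller step. It had 9.10, 8.86 and 9.16 on the restricted diet, 9.24, 9.79 and 9.57 with resveratrol, and 9.73, 9.95 and 9.55 on the normal diet. The restricted arrays lay below those of both other diets, which overlapped. The change was -0.70, SE 0.16, or 1.63-fold lower on the restricted diet (limma adjusted p = 0.0264). The call ended without normal-diet replicate 1 or 2 (adjusted p = 0.0763 and 0.0832) and without restricted-diet replicate 1, 2 or 3 (adjusted p = 0.0694, 0.0620 and 0.0549). The change without 1 of these arrays was between -0.76 and -0.60, and the call also ended with no filter on low values (adjusted p = 0.0860).

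A further corneal lens protein that is no Cpr gene, retinin, was looked at after these values were seen. It stood at 13.53 ± 0.32 on the restricted diet, 13.65 ± 0.36 with resveratrol and 13.88 ± 0.11 on the normal diet (SD, n = 3 each). Its change on the restricted diet was -0.35 with a 95% interval from -0.83 to 0.13, and it did not pass (limma adjusted p = 0.245). All 5 of the measured photoreceptor markers (trp, inaD, Arr1, Arr2 and chp) fell on the restricted diet, by a median of 0.48. The 6 measured neuron markers all fell too, by a median of 0.49. Of all features, 12.9% fell. The part of either set of markers in the Cpr result was not tested.

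Cpr49Ab was the 1 member that rose. Its values were 9.62, 9.48 and 9.34 on the restricted diet, 7.93, 8.81 and 8.50 with resveratrol, and 8.06, 6.71 and 8.64 on the normal diet. The restricted arrays lay close together above all others, while the normal-diet arrays were spread widely, with replicate 2 the lowest of the 9. The mean was 9.48 ± 0.14 on the restricted diet and 7.80 ± 0.99 on the normal diet (SD, n = 3 each). The change was 1.68, SE 0.45, or 3.20-fold higher (limma adjusted p = 0.0414). The call ended without normal-diet replicate 1 or 2 (adjusted p = 0.0857 and 0.0593), restricted-diet replicate 1, 2 or 3 (adjusted p = 0.1155, 0.0771 and 0.0878) or resveratrol replicate 2 or 3 (adjusted p = 0.0608 and 0.0534). It also ended with no filter (adjusted p = 0.132) and in a fit of only the 6 arrays of both diets (adjusted p = 0.0703). The change was 1.13 without normal-diet replicate 2 and 2.09 without normal-diet replicate 3.

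**Figure D2:**
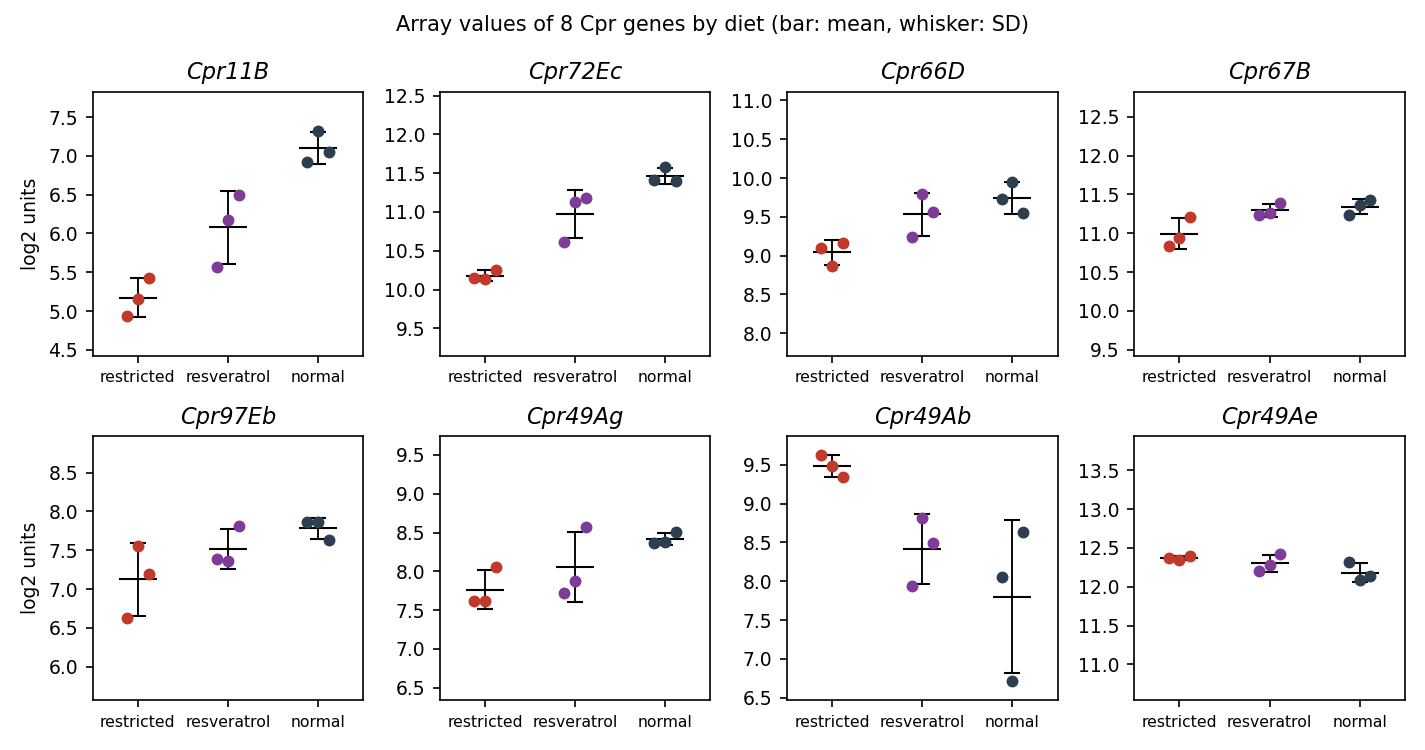
Array values (log2 units, vertical axes of equal span) of 8 Cpr genes on the restricted diet, with resveratrol and on the normal diet. Points are arrays, the long bar is the mean and the whiskers are the SD of 3 arrays. Cpr11B and Cpr72Ec do not overlap between any of the diets, and Cpr49Ab has its lowest array, 6.71, on the normal diet.

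Beyond these 4, several genes had values that did not overlap between the restricted and the normal diet without passing. In all, 6 of the 17 lay lower on every restricted array than on every normal array, or 35.3%, beside 28.4% of all features. Higher on every restricted array were 2, or 11.8%, beside 16.4%. Cpr67B had 10.83, 10.94 and 11.21 on the restricted diet and 11.24, 11.36 and 11.43 on the normal diet. Its change was -0.35 (limma adjusted p = 0.0549), and the nearest arrays of the diets were 0.03 apart. Cpr97Eb had 6.62, 7.56 and 7.19 on the restricted diet and 7.86, 7.86 and 7.63 on the normal diet, with a change of -0.66 (limma adjusted p = 0.0832). Its spread was on the restricted side, where the SD was 0.47 against 0.13 on the normal diet.

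Within the Cpr49A cluster the 3 genes above the gap did not move alike. Cpr49Ag had 7.62, 7.62 and 8.06 on the restricted diet and 8.37, 8.38 and 8.50 on the normal diet, a change of -0.65 (limma adjusted p = 0.0759). In the same run of adjacent genes, Cpr49Ae had 12.37, 12.34 and 12.39 on the restricted diet and 12.32, 12.09 and 12.14 on the normal diet. The diets were 0.02 apart at their closest there, and the change of 0.19 had a 95% interval from 0.00 to 0.37 (limma adjusted p = 0.131). Cpr49Ab, described above, passed in the higher direction, and neither of the others passed. In the Cpr47E cluster all 3 changes were small, at -0.14 for Cpr47Ee, -0.04 for Cpr47Ef and 0.04 for Cpr47Ea.

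None of the remaining genes passed in this comparison, and some varied little over the 9 arrays. Cpr65Au lay within 0.26 over all 9 arrays, from 13.64 to 13.90, and its change on the restricted diet was 0.07 with a 95% interval from -0.10 to 0.24. Cpr47Ef lay within 0.29, and its interval ran from -0.22 to 0.13. For Cpr62Bb the restricted arrays were 9.03, 9.83 and 9.46, so that both the lowest and the highest of the 9 arrays were on that diet. Cpr100A had 5.65, 5.75 and 5.45 on the restricted diet, 5.48, 5.62 and 5.85 with resveratrol, and 6.42, 5.75 and 5.87 on the normal diet. Its change of -0.40 had an interval from -0.82 to 0.03 (limma adjusted p = 0.155). Cpr60D had a change of 0.22, Cpr51A of -0.13 and Cpr73D of -0.11, and each interval included 0.

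The second comparison set flies fed resveratrol against flies on the normal diet alone. None of the 17 genes passed in limma, where 0.227% of all features did. At an unadjusted p under 0.05 there were 2, Cpr11B and Cpr72Ec, or 11.8%, beside 9.74% of all features. Cpr11B averaged 6.08 ± 0.47 with resveratrol and 7.10 ± 0.21 on the normal diet (SD, n = 3 each), a change of -1.02 with a 95% interval from -1.57 to -0.47 (limma adjusted p = 0.192). Cpr72Ec averaged 10.97 ± 0.31 with resveratrol and 11.46 ± 0.10 on the normal diet, a change of -0.49 with an interval from -0.82 to -0.16 (limma adjusted p = 0.292). These 2 were also the members whose resveratrol arrays all lay below the normal-diet arrays, 11.8% beside 9.09% of all features. No member had all its resveratrol arrays above the normal-diet arrays, where 6.35% of all features did.

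In the other 15 members the resveratrol arrays overlapped those of the normal diet. Cpr67B was at 11.23, 11.26 and 11.39 with resveratrol, beside 11.24, 11.36 and 11.43 on the normal diet, and its change of -0.05 had a 95% interval from -0.29 to 0.19. Cpr49Ab had a change of 0.61 with an interval from -0.44 to 1.66, too wide to bound it tightly. Cpr66D had -0.21 and Cpr49Ag -0.36, and Cpr97Eb had -0.26. For Cpr49Ag the resveratrol arrays were 7.71, 7.88 and 8.57, replicate 3 lying above every other array of the series. The median change of the 17 was -0.04, and that of all features -0.01.

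**Figure D3:**
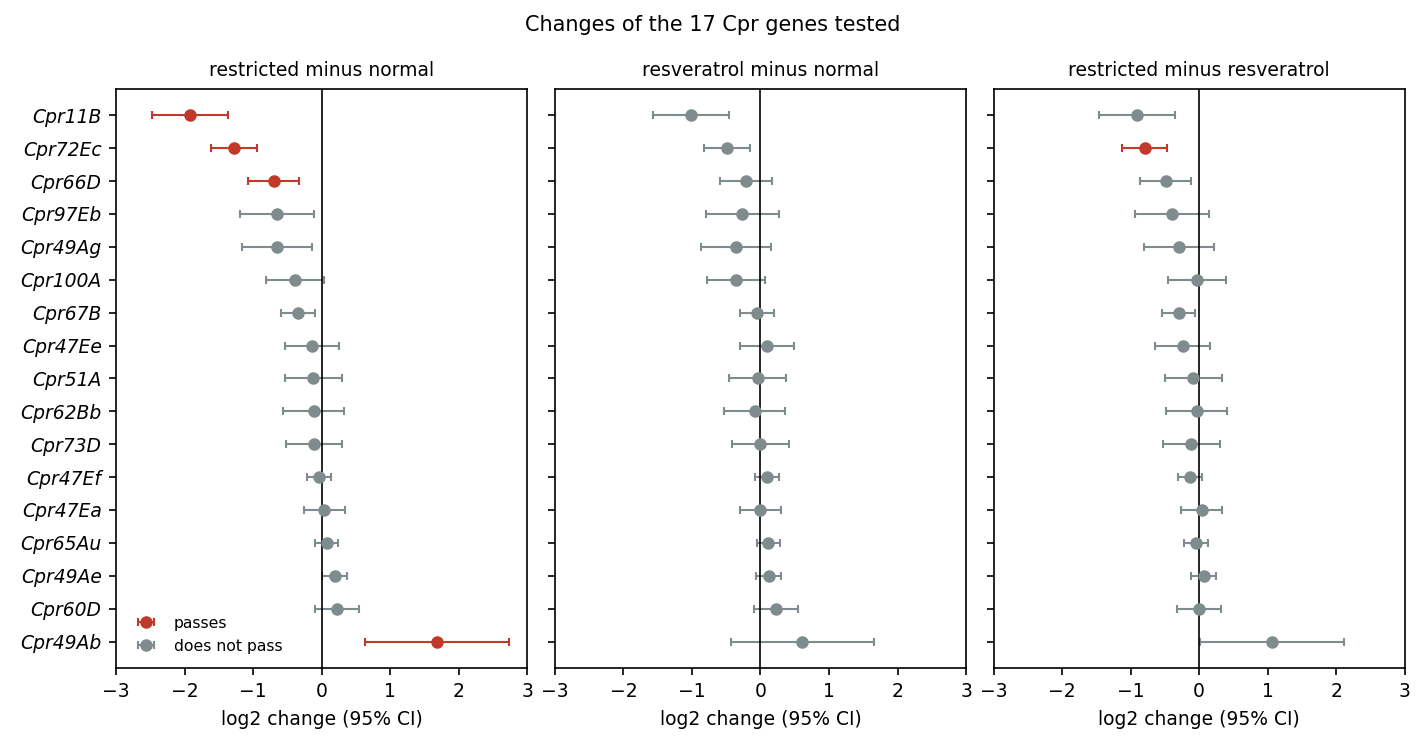
Log2 changes (horizontal axes) of the 17 Cpr genes tested, with 95% intervals from limma, with 1 panel each for the restricted over the normal diet, resveratrol over the normal diet and the restricted diet over resveratrol. Red marks an adjusted p under 0.05. Cpr11B, Cpr72Ec, Cpr66D and Cpr49Ab pass in the first panel, none in the second and Cpr72Ec in the third.

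The restricted diet was also set against resveratrol, which tests the difference between the treatments directly. Cpr72Ec passed, with means of 10.18 ± 0.07 (SD, n = 3) for restricted flies and 10.97 ± 0.31 (SD, n = 3) for flies given resveratrol. Its change was -0.79, SE 0.14, or 1.73-fold lower on the restricted diet (limma adjusted p = 0.0437). That 1 gene is 5.88% of the 17, beside 2.09% of all features that were lower, and no member was higher, where 0.453% of all features were. The call ended without normal-diet replicate 1 or 3 (adjusted p = 0.0742 and 0.0575), without restricted-diet replicate 1, 2 or 3 (adjusted p = 0.121, 0.0659 and 0.0998), and without resveratrol replicate 2 or 3 (adjusted p = 0.1407 and 0.1385). It also ended when arrays were centred on their medians (adjusted p = 0.0723) or quantile normalized (adjusted p = 0.0605), with no filter (adjusted p = 0.115) and in a fit of only the 6 arrays of these diets (adjusted p = 0.0785).

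Cpr11B did not pass there, with a change of -0.90 and a 95% interval from -1.46 to -0.35 (limma adjusted p = 0.0794). Cpr66D had -0.49 (adjusted p = 0.123), Cpr67B -0.30 (adjusted p = 0.137) and Cpr49Ab 1.06 (adjusted p = 0.194). The restricted arrays lay below all resveratrol arrays in 5 members, 29.4% beside 21.2% of all features, and above them in Cpr49Ab, 5.88% beside 9.83%. The resveratrol mean fell between the means of the restricted and the normal diet in 12 of the 17 genes. That share was not worked out for all features, so nothing about the family is read from it. Both treatment comparisons use the same normal-diet arrays, so their changes are given side by side and no likeness between them is read.

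The arrays were not equally often at the extremes. Of the 17 genes, 11 had their lowest array on the restricted diet, 7 of them on replicate 1. With resveratrol 2 had their lowest array and on the normal diet 4, of which 3 were on replicate 2. These counts were not made over all features, so they are not read as a trait of the Cpr genes. Of all features, 58.7% had a change below 0 on the restricted diet against the normal diet. The mean over the 17 genes ran from 8.42 to 8.59 on the restricted diet, from 8.54 to 8.84 with resveratrol and from 8.70 to 8.89 on the normal diet. Within a diet the mean SD of a gene lay between 0.08 for Cpr65Au and 0.52 for Cpr49Ab.

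Markers of other tissues shifted between the same arrays. Photoreceptor markers, 5 of 8 measured by probe sets of their own, averaged 12.24 to 12.30 on the restricted diet, 12.51 to 12.66 with resveratrol and 12.64 to 12.78 on the normal diet. Neuron markers, 6 of 8, averaged 8.80 to 8.89 on the restricted diet, 9.31 to 9.48 with resveratrol and 9.32 to 9.49 on the normal diet, and all 6 fell on the restricted diet, where 12.9% of all features did. Flight muscle markers, 6 of 8, averaged 12.68 to 12.87 on the restricted diet, 12.87 to 13.12 with resveratrol and 13.00 to 13.28 on the normal diet, and 1 of the 6, TpnC4, fell on the restricted diet. Epidermal and cuticle markers above the filter, 4 of 6 (grh, ple, Ddc and e), averaged 7.91 to 8.25 on the restricted diet, 8.09 to 8.64 with resveratrol and 8.48 to 9.01 on the normal diet. Among these 4, named after their values were seen, Ddc fell, by 0.40 (limma adjusted p = 0.0217). The change of the epidermal factor grh was -0.35 (limma adjusted p = 0.0619). The other 2 of the list, y and resilin, stayed at 2.12 on every array, and ple lay close to the filter, at 3.85 to 5.03. The mean of the 4 is not read as a measure of the epidermis alone.

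Midgut, germline, fat body and oenocyte markers had higher means on the restricted diet than on the normal diet. The 8 midgut markers averaged 11.92 to 12.36 on the restricted diet, 11.20 to 11.73 with resveratrol and 10.26 to 11.39 on the normal diet, and 5 of them rose on the restricted diet, where 5.27% of all features did. Of 6 germline markers measured, 5 were above the filter, and none of the 5 passed in limma. They averaged 7.15 to 8.51 on the restricted diet, 5.66 to 8.10 with resveratrol and 5.52 to 6.66 on the normal diet. Among the 5, bam lay under log2 4 on every normal-diet array and met the filter through the other diets. Normal-diet replicate 2, which had the lowest Cpr49Ab value, was also the lowest array in the midgut, germline, fat body and oenocyte lists. The 7 fat body markers averaged 14.86 to 14.99 on the restricted diet, 14.57 to 14.93 with resveratrol and 13.90 to 14.08 on the normal diet, and 4 of them rose on the restricted diet. The 4 oenocyte markers, of the cells that make cuticular hydrocarbons, averaged 12.63 to 12.76 on the restricted diet, 11.96 to 12.51 with resveratrol and 11.82 to 12.56 on the normal diet, and none passed in limma. Of 4 measured tracheal markers, 2 were above the filter, averaging 7.48 to 7.77 on the restricted diet, 7.62 to 7.74 with resveratrol and 7.80 to 8.36 on the normal diet, and 1 of them, Gasp, fell on the restricted diet. The part of these shifts in the Cpr results was not tested. In RNA of whole heads and thoraces, a change in the share of any tissue and a change in RNA per cell cannot be told apart.

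**Figure D4:**
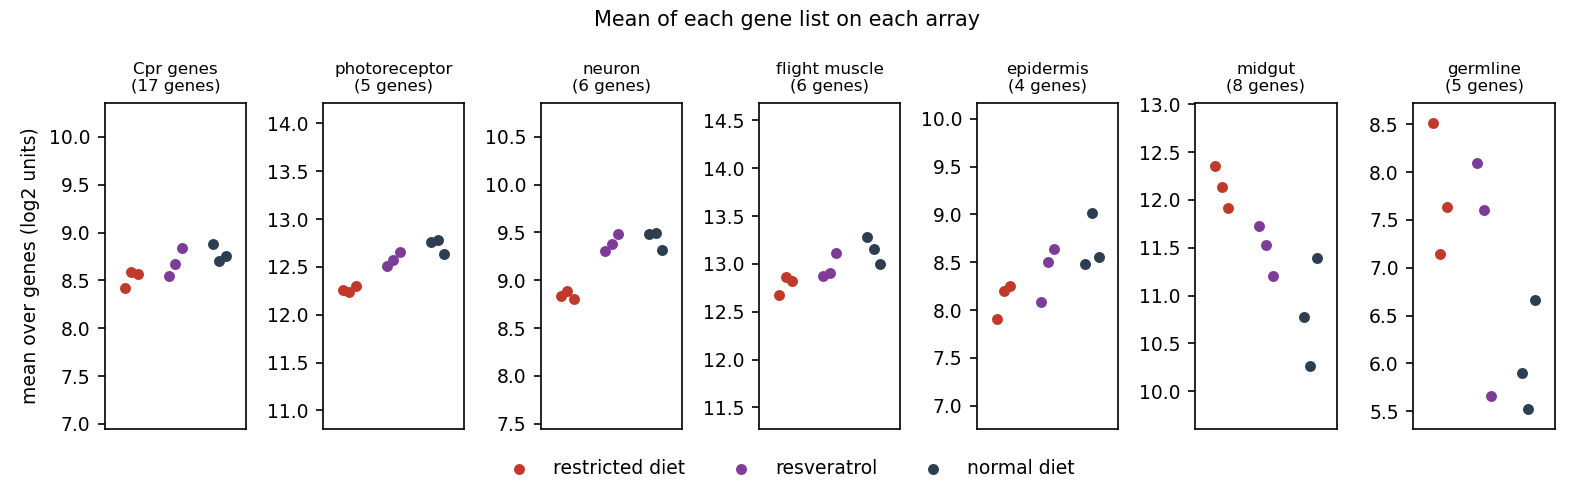
Mean over the genes of each list (log2 units, vertical axes of equal span) on each array, by diet. The Cpr, photoreceptor, neuron, flight muscle and epidermis lists have lower means on the restricted diet than on the normal diet, and the midgut and germline lists have higher ones.

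Other structural cuticle proteins were nearly all below log2 4. Of 30 listed larval, pupal and adult cuticle proteins of the Lcp, Ccp84A, Edg and similar groups, 16 were measured by probe sets of their own. None of the 16 reached log2 4 on 3 arrays, and their highest value on any array was 3.51. Of 25 measured Tweedle genes, which encode another family of chitin-binding cuticle proteins, 2 reached it. They were TwdlG, with a change of -0.27 on the restricted diet, and TwdlT, with -0.03, and neither passed.

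Genes that make, bind and remodel chitin changed in part on the restricted diet, on which 5.27% of all features rose and 12.9% fell. Of 6 tested genes of chitin synthesis, 1 fell, Gfat1 (by 0.49, limma adjusted p = 0.0106), which starts the path to the sugar from which chitin is made. knk, which organises chitin in the cuticle, had -0.34, and mmy and Gfat2 had -0.11 and 0.09. Of 17 genes of chitin breakdown and its relatives, 5 fell, or 29.4%, and none rose, with a median of -0.21. Idgf5, a chitinase-like protein, fell by 0.73, the chitin deacetylase Cda5 by 0.70, Idgf3 by 0.27 and the chitinase Cht8 by 0.24. Cht4, named after its value was seen, fell by 0.50. Of 9 chitin-binding proteins, Gasp and Muc68D fell by 0.58 and 0.21 and Peritrophin-15b rose by 3.53. Peritrophin-15b stood at 2.75, 2.12 and 3.08 on the normal diet, so only arrays of the other diets brought it past the filter. With its normal-diet values near the floor, neither the size of its rise nor the call is firm. Peritrophin-15a had 3.06 and did not pass (limma adjusted p = 0.0897). The 2 peritrophins belong to a family of the gut lining.

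Tanning, surface and moult genes showed single changes on the restricted diet, to be read against the same shares of all features. Of 17 genes of tanning and pigment, Ddc fell by 0.40 and yellow-f by 0.38, and the other 15 did not pass. Ddc makes the dopamine used to harden and colour cuticle, and its result is the one given above for the epidermal markers. Among the 15, yellow-e had 0.36 (limma adjusted p = 0.0521) and tan, written t, -0.31. Also among the 15, yellow-g lay under log2 4 on every normal-diet array and met the filter through the other diets. Of 5 genes of the apical matrix none passed, with 0.37 for nompA, -0.24 for pio, -0.34 for dpy and -0.30 for qsm. The filter was met for nompA only on restricted-diet and resveratrol arrays. Of 11 genes of cuticular hydrocarbons, which waterproof the cuticle, spidey rose by 0.31, while FASN3, Fad2 and eloF had 1.04, 0.95 and 0.85 and did not pass (limma adjusted p = 0.0501, 0.0782 and 0.0929). Of 12 moult and ecdysone genes, 3 fell (Hr39 by 0.33, Eip93F by 0.44 and usp, the partner of the ecdysone receptor, by 0.25, the last named after its value was seen) and 2 rose. They were Hr96 (0.54), a nuclear receptor of lipid and toxin handling, and MsrA (1.63), an ecdysone-induced gene for methionine sulfoxide reductase.

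In these 9 lists no gene passed for resveratrol against the normal diet in limma. For the restricted diet against resveratrol, 3 of the 12 moult and ecdysone genes passed, beside 0.453% of all features higher and 2.09% lower. MsrA was higher by 1.26, and Cyp18a1, which inactivates ecdysone, and the nuclear receptor Hr38 were lower, with changes of -0.53 and -1.23.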

How the data were processed

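Head and thorax RNA of 9 pools of flies, 3 for each of 3 diets, was hybridised to 1 array each after one-cycle labelling of 5 µg, per the labels' protocols. The deposited table holds log2 values per probe set, which the authors computed with GCRMA, per the submitters' processing notes. No version of it was given in the sources used here. Its background correction uses the base content of each probe, which flattens values near the floor and can widen changes just above it.

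Of 18952 probe sets, 183 controls were left out. Symbols came from the platform annotation, and all 66 Cpr genes were found by gene identifier in the RefSeq table of Release 6 plus ISO1 MT, used only for names and gene order. A probe set was tested where at least 3 of 9 arrays reached log2 4, the brightest standing for its gene. On 1 array, 9295 to 9405 of 18769 probe sets reached it. All 9 arrays were fitted in limma 3.58.1 (R 4.3.3) with a mean per diet, 6 residual and 1.81 prior degrees of freedom, and Benjamini-Hochberg adjustment over 8822 features at 0.05. The fit was tested on simulated data. The number of arrays limits the precision.

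The Cpr genes and all lists were chosen with earlier results of these data known. Genes named were those passing in any comparison, the 6 largest changes each way, the 6 with the highest means, the 3 either side of log2 4, and up to 4 of each other list by smallest p. A calcium-binding gene put in the chitin-binding list in error was removed after its values were seen. Lists are described by counts and medians, without a test. Alternatives covered normalization, filter, probe set rule, variance model, threshold, a replicate block and leaving out arrays.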

Additional observations from a re-analysis of the deposited data

How the results depend on the processing

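On the restricted diet against the normal diet, Cpr11B and Cpr72Ec passed under all 18 other settings. Cpr genes that rose numbered 1, and 0 with no filter, with only the 6 arrays of both diets or with a replicate block. With 1 array left out there were 0 to 1. Genes that fell numbered 3, from 2 to 4 with 1 array left out, and 6 at a threshold of 0.10. Same-numbered arrays of different diets had residuals correlating at -0.328 to 0.399, against -0.366 to 0.415 for different numbers. These ranges overlap, which gives no sign that the numbers pair the arrays but cannot exclude it with 3 arrays per diet. With a replicate block 4 genes fell, Cpr67B and Cpr49Ag passing (adjusted p = 0.0401 and 0.0442) and Cpr66D and the higher Cpr49Ab not (adjusted p = 0.0555 and 0.0757). For the restricted diet against resveratrol, 1 gene fell, and 0 with quantile normalization, median centring, no filter, 6 arrays or a replicate block (adjusted p = 0.0919 for Cpr72Ec), 2 at the threshold of 0.10, and 0 to 1 with 1 array left out. For resveratrol against the normal diet 0 passed under every setting run. Cpr67B, Cpr49Ag and Cpr97Eb passed on the restricted diet under some settings (lowest adjusted p = 0.0337, 0.0220 and 0.0373). The cause was not tested.

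Of 51 single changes, 15 turned sign in 34 of 912 values, none of which passed. Under quantile normalization these were restricted minus resveratrol for Cpr62Bb (0.0054), Cpr60D (0.0377) and Cpr100A (0.0188) and restricted minus normal for Cpr47Ea (-0.0634), and under median centring Cpr60D (0.0248). With 1 array left out, restricted minus normal ran from -0.0088 to 0.122 for Cpr47Ea, -0.102 to 0.0134 for Cpr47Ef, -0.317 to 0.0855 for Cpr62Bb and -0.304 to 0.0256 for Cpr73D. Resveratrol minus normal ran from -0.131 to 0.0962 for Cpr47Ea, -0.0628 to 0.277 for Cpr47Ee, -0.195 to 0.125 for Cpr51A and -0.192 to 0.138 for Cpr73D. Restricted minus resveratrol ran from -0.122 to 0.0657 for Cpr100A, -0.0599 to 0.167 for Cpr47Ea, -0.252 to 0.0684 for Cpr51A, -0.0675 to 0.0640 for Cpr60D, -0.235 to 0.168 for Cpr62Bb, -0.102 to 0.0258 for Cpr65Au and -0.192 to 0.0264 for Cpr73D. A change in the 49 genes under log2 4 could not be measured.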

Other observations

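Probe sets that name a Cpr gene together with another gene were outside the family as taken here. One naming both Obp57d, an odorant-binding gene, and Cpr57A had 6.54, 7.18 and 6.96 on the restricted diet, 7.19, 7.26 and 7.65 with resveratrol, and 7.56, 7.70 and 7.08 on the normal diet. Its change on the restricted diet was -0.55 (limma adjusted p = 0.110), and which gene the signal comes from cannot be told. A second probe set with the same pair of names stayed under log2 4 on all 9 arrays, as did those naming Cpr65Ax1 with Cpr65Ax2 and Cpr67Fa1 with Cpr67Fa2. Cpr47Ef had a second probe set at the floor, averaging 2.12, while the one that stood for it averaged 8.65 over the same arrays.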
